A study of Mus musculus with 27 samples.

Results

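Regulators of alternative splicing in neurons, encoded by 10 genes, were followed through development of the mouse retina: the polypyrimidine tract binding genes Ptbp1 and Ptbp2, the Musashi genes Msi1 and Msi2, the neural microexon regulator Srrm4, the Fox-1 genes Rbfox1, Rbfox2 and Rbfox3, and the Nova genes Nova1 and Nova2. Members were taken by gene symbol, and 10 of the 38168 listed features carried those symbols, with 1 row for each. RNA was measured in whole retina of wild type C57BL/6J mice in 27 libraries at 7 ages. These were embryonic day 14 (E14, n = 3), E17 (n = 3), postnatal day 1 (P1, n = 4), P6 (n = 3), P15 (n = 4), P28 (n = 4) and P60 (n = 6). No group carried a mutation or received an agent. According to the study's methods, most libraries were pools of several animals, with mixed sexes up to P1 and males afterwards. The P60 set combined pools of 3 mice with 4 libraries of individual mice. The sources used here do not say which P60 libraries were which, so pooling cannot be told apart from other differences among them. Levels are read counts scaled to a common library total (CPM), and read totals on listed features were 7076646 to 11330762 per library.

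As background, alternative splicing joins different sets of exons of a gene into mature RNA, and neurons use many exons that other cells skip. PTBP1 is a repressor of such exons in progenitor and non-neural cells, and PTBP2 is its close relative in developing neurons. SRRM4 promotes inclusion of very short neural exons, the RBFOX proteins bind GCAUG elements, the NOVA proteins bind YCAY elements, and MSI1 and MSI2 bind UAG elements. In photoreceptors the Musashi proteins are known to promote exons of cilium and synapse genes. Fewer cells of a type and less RNA per cell cannot be told apart in whole retina.

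The best known link between these genes is a short exon of Ptbp2, shown here because PTBP1 represses it and SRRM4 promotes it. In the GENCODE annotation (build GRCm38) this exon is exon 10 of the longest coding transcripts, lies at chr3:119724612-119724645 on the minus strand, and is 34 bases long. It lies in the coding part of the gene, and its length leaves 1 base beyond whole codons, so skipping it shifts the reading frame. The sequences below run 5′ to 3′ in the transcript, with 30 bases of each neighbouring exon. In the first, exon 10 is in capitals, and in the second, where exon 10 is missing, the start of the next exon is in capitals.

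Ptbp2 with exon 10: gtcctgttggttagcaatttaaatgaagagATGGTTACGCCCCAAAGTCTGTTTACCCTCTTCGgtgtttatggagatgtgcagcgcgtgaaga
Ptbp2 without exon 10: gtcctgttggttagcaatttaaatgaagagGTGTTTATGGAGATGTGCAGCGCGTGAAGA

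Of the 13 annotated Ptbp2 transcripts, 6 spanned this position. Exon 10 was present in 3 of them, all annotated as protein coding. The junction without exon 10 was present in 2, both annotated as targets of nonsense-mediated decay, the pathway that removes RNA with an early stop codon. The CPM of Ptbp2 is a value for the whole gene, so it does not measure how often this exon was used.

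The P60 libraries did not form a uniform group. P60 replicates 1 and 2 had a mean correlation with the P28 libraries of 0.985 and 0.981 over log2(CPM + 1), whereas P60 replicates 3 to 6 had values of 0.9457 to 0.9753. Rn18s, the gene for 18S ribosomal RNA, was at 798 CPM and 113 CPM in P60 replicates 1 and 2 and at 4.52 to 31.3 CPM in P60 replicates 3 to 6. Rn18s also stood apart at other ages, at 13464 CPM in E17 replicate 2 against 85.8 and 527 CPM in the other E17 libraries, and at 2202 CPM in P28 replicate 3 against 203 to 350.1 CPM in the other P28 libraries. Of 31760 features tested, 1524 were higher and 2576 lower at P60 than at P28. These counts were 64 and 86 of 31419 when P60 replicates 3 to 6 were left out. The tests of the 10 regulators and the counts over gene lists that involved P60 were therefore also run without those 4 libraries, a choice made after seeing the data. Those 4 were the P60 libraries that correlated least with P28, and only P60 replicates 1 and 2 then remained. A P28 to P60 difference lost in this way is therefore no evidence that levels stayed the same.

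**Figure D1:**
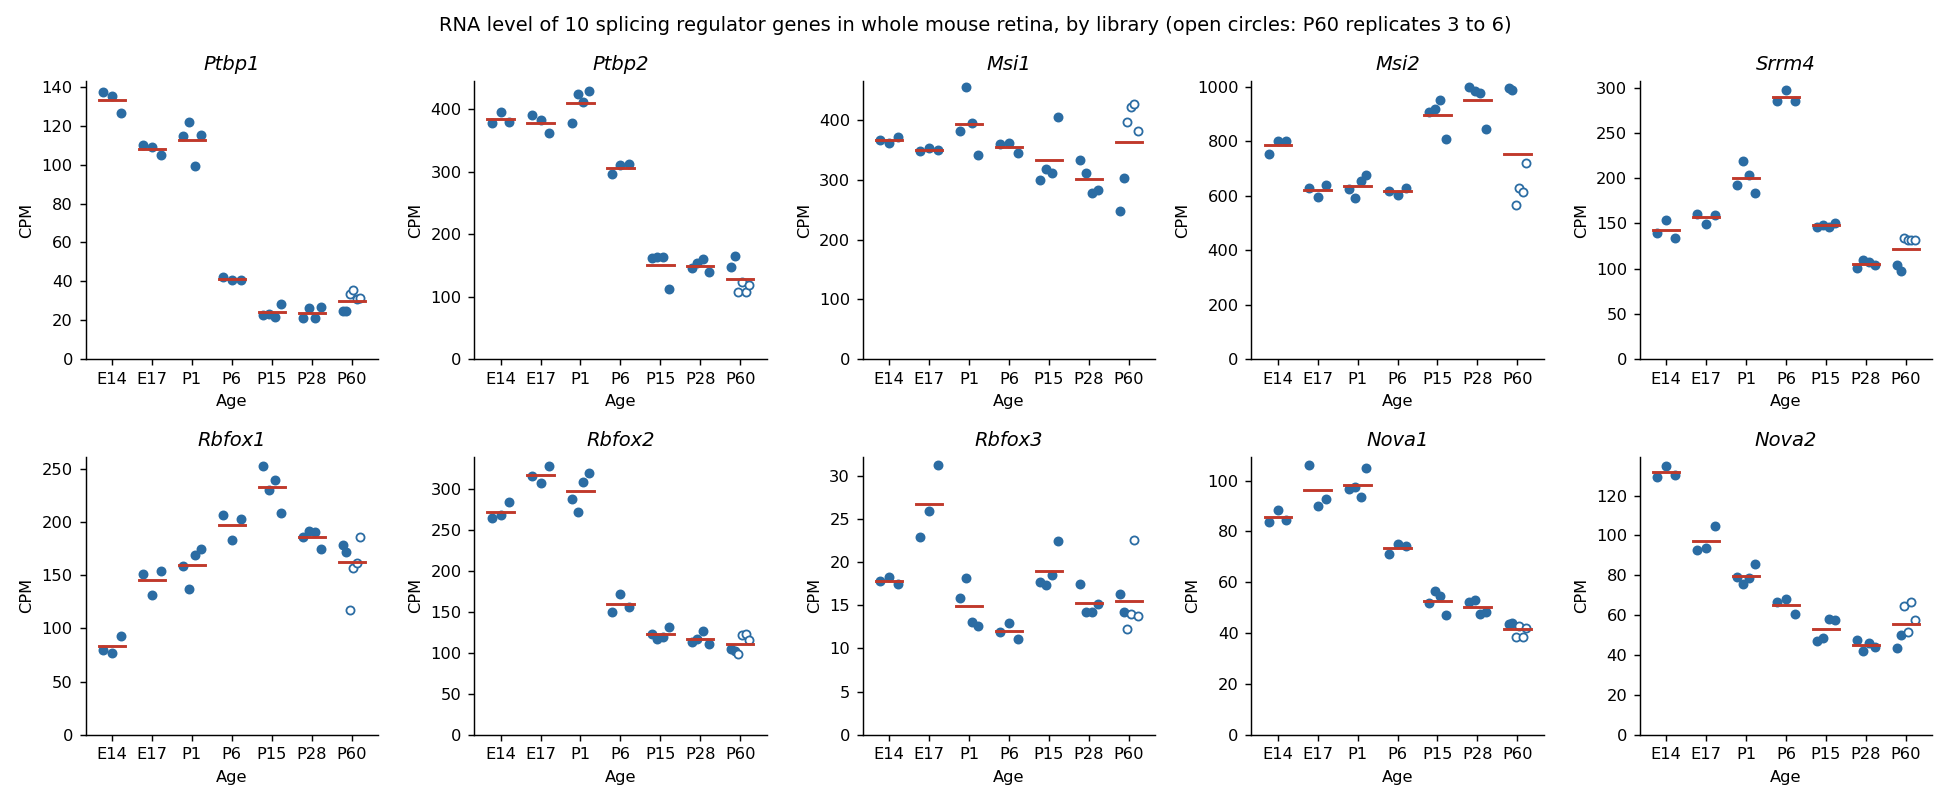
Level of each gene in CPM (vertical axes, linear, starting at 0) in each of the 27 libraries at the 7 ages (horizontal axes). Circles are libraries, red bars are means at an age, and open circles are P60 replicates 3 to 6. Ptbp1 was at 127 to 137 CPM at E14 and at 21.1 to 35.4 CPM from P15 on, and Msi2 in P60 replicates 3 to 6 was at 566 to 722 CPM, below P60 replicates 1 and 2.

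Mature retina (P15, P28 and P60, 14 libraries) was first compared with embryonic retina (E14 and E17, 6 libraries). Tests used limma on log2(CPM + 1) with Benjamini-Hochberg adjustment over all 31760 features, each age weighted equally, and a gene was called at an adjusted p below 0.05. Of the 10 regulators, 7 fell, 2 rose and 1 did not pass the test. Over all features, 75.4% were called, with 35.0% higher and 40.4% lower, so a call as such was common in this comparison. With a change of at least 2-fold also required, 4 regulators were lower and 0 higher, against 16.1% of all features lower and 14.9% higher. The 4 were Ptbp1, Ptbp2, Rbfox2 and Nova2. The median difference was -0.65 over the regulators and -0.06 over all features. Without P60 replicates 3 to 6, the 9 called members kept their direction and call, with Ptbp1 at -2.27, Ptbp2 at -1.33, Rbfox2 at -1.36 and Nova2 at -1.22, and Msi1 was added.

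**Figure D2:**
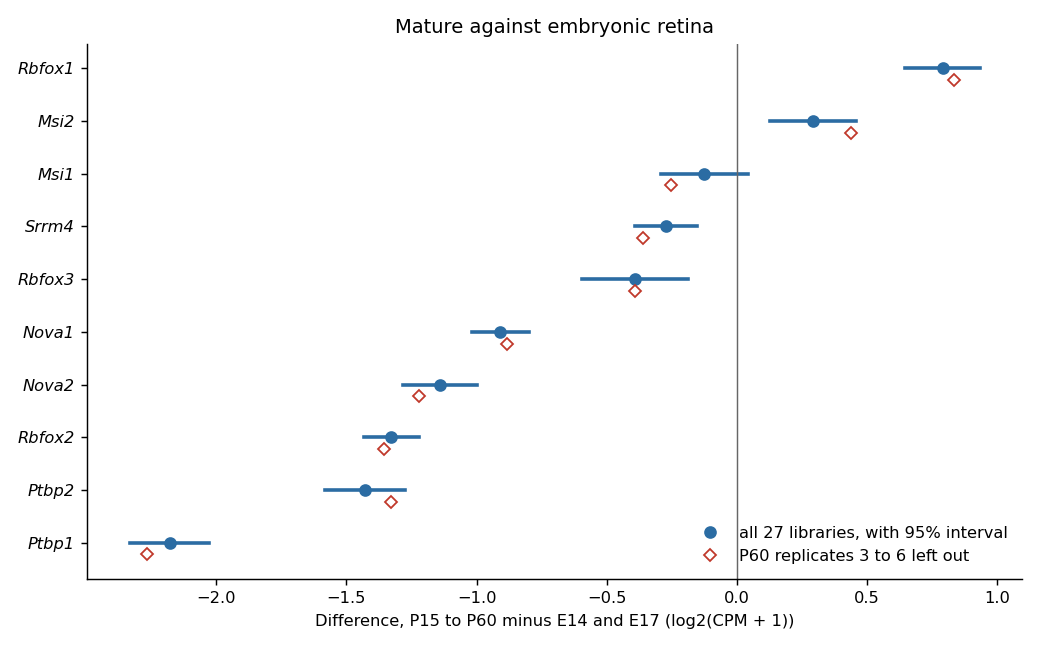
Difference between mature and embryonic retina in log2(CPM + 1) for each gene (horizontal axis), from all 27 libraries with its 95% confidence interval (circles and lines) and with P60 replicates 3 to 6 left out (diamonds). Ptbp1 had the lowest value at -2.18 and Rbfox1 the highest at 0.79, and the interval of Msi1 included 0.

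Ptbp1 (chr10:79854427-79864771, plus strand), which encodes the repressor of neural exons, was high in embryonic retina and low from P6 on. Its libraries were at 137, 136 and 127 CPM at E14, at 110.1, 109 and 105 CPM at E17, and at 115, 122, 99.3 and 115 CPM at P1. At P6 they were at 42.1, 40.8 and 40.7 CPM, at P15 at 22.8, 23.2, 21.9 and 28.2 CPM, at P28 at 21.1, 26.5, 21.2 and 27.03 CPM, and at P60 the lowest, median and highest were 24.5, 31.2 and 35.4 CPM. Every mature library was below every embryonic library. The difference was -2.18 on the log2 scale (SE 0.07, adjusted p = 2.0e-22), and the mature mean was 0.216 of the embryonic mean.

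The decline of Ptbp1 was concentrated around the first postnatal week. Its difference from P1 to P6 was -1.43 (SE 0.12, adjusted p = 8.5e-12), and from P6 to P15 it was -0.76 (SE 0.12, adjusted p = 4.5e-06). The libraries of neighbouring ages did not overlap in either step. Dividing progenitor markers (Mki67, Top2a, Pcna, Ccnd1 and Fgf15, all detected) summed to 4361 to 4739 CPM at P1, to 139 to 188 CPM at P6 and to 22.4 to 26.04 CPM at P15. The part of this in the fall of Ptbp1 was not tested. At P60 Ptbp1 was higher than at P28 by 0.31 (SE 0.10, adjusted p = 0.036), but with P60 replicates 3 to 6 left out the difference was 0.05 (adjusted p = 0.91).

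The exons of Ptbp1 overlap 3 annotated genes on the other strand, among them Plppr3. The sources used here do not say whether counting used strand, so reads of these overlaps cannot be told apart. The same limit holds for exons of Rbfox2 and Nova2, which overlap 1700109K24Rik and Gm26821 on the other strand, while Nova1 overlaps Gm33869 on its own strand.

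Ptbp2 (chr3:119718742-119784466, minus strand), the neuronal relative, passed the test in no step up to P1, and its larger fall came between P6 and P15. It was at 378, 396 and 380.0 CPM at E14, at 391, 383 and 362 CPM at E17, and at 378, 424, 412 and 429 CPM at P1. It was at 296, 311 and 312 CPM at P6, at 162, 164, 164 and 112 CPM at P15, at 146, 153, 159.9 and 139 CPM at P28, and at P60 the lowest, median and highest were 107, 121 and 165 CPM. Mature and embryonic libraries did not overlap, with a difference of -1.43 (SE 0.08, adjusted p = 2.0e-17).

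For Ptbp2 the step from P1 to P6 was -0.42 (SE 0.12, adjusted p = 0.0044), and the step from P6 to P15 was -1.04 (SE 0.12, adjusted p = 2.0e-08). P15 replicate 4 lay far below the other P15 libraries, and leaving it out together with P60 replicates 3 to 6 gave -0.90 for the latter step. The difference from P28 to P60 was -0.24 and did not pass the test (adjusted p = 0.10), with P60 replicates 1 and 2 at 147 and 165 CPM and P60 replicates 3 to 6 at 107 to 123 CPM.

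The ratio of the PTB genes within a library changed with age. Ratios between genes are given as descriptions without a test, and because transcript lengths differ only their change across ages is read. The geometric mean of the Ptbp2 to Ptbp1 CPM ratio was 2.89 at E14 (libraries 2.75 to 3.00), 3.503 at E17, 3.65 at P1 and 7.44 at P6 (7.03 to 7.67). The ratios at P6 lay above those of every library at the 3 earlier ages. It was 6.22 at P15, where P15 replicate 4 was at 3.96 and the other libraries at 7.07 to 7.49, within the range of P6. It was 6.28 at P28 and 4.24 at P60, where P60 replicates 1 and 2 were at 5.9 and 6.73 and P60 replicates 3 to 6 at 3.24 to 3.74. By P6 Ptbp1 had made the larger of its 2 falls and Ptbp2 the smaller.

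**Figure D3:**
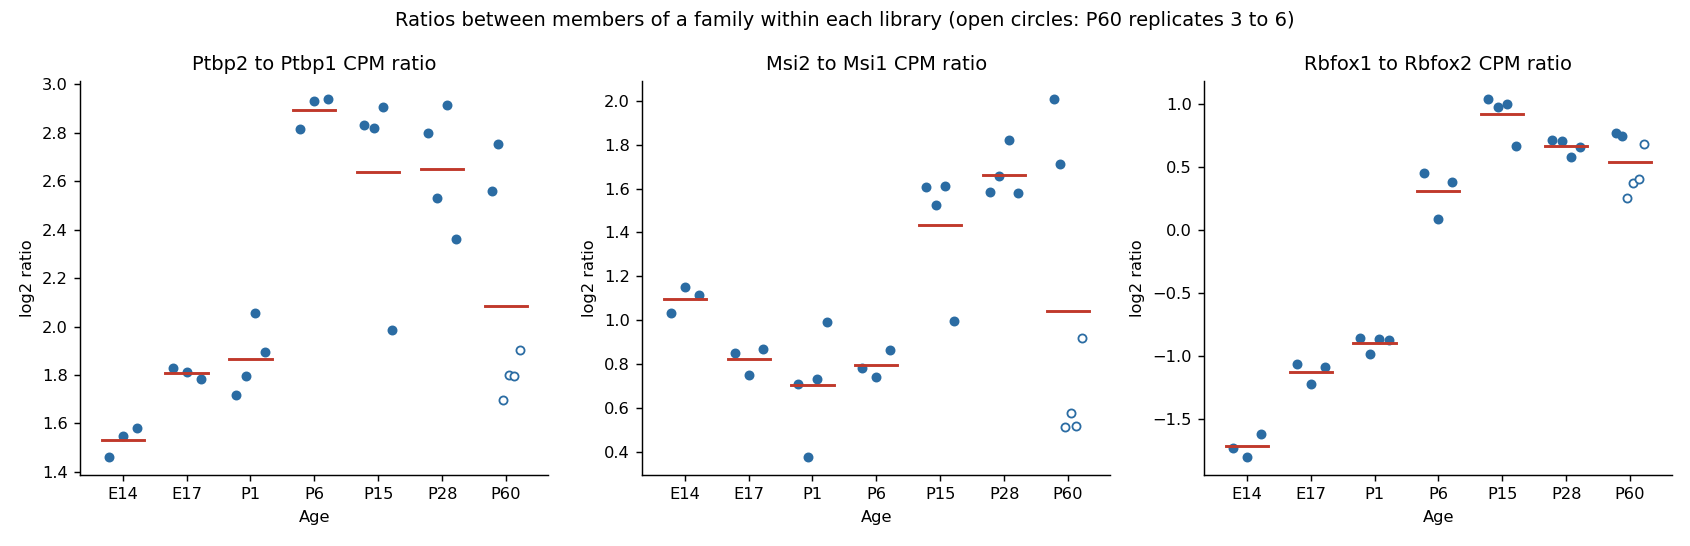
log2 of the CPM ratio within each library (vertical axes) for Ptbp2 to Ptbp1, Msi2 to Msi1 and Rbfox1 to Rbfox2 at the 7 ages (horizontal axes). Circles are libraries, red bars are means, and open circles are P60 replicates 3 to 6. Ptbp2 to Ptbp1 had its highest mean at P6 (2.90), Rbfox1 to Rbfox2 rose from a mean of -1.72 at E14 to 0.92 at P15, and Msi2 to Msi1 at P60 ranged from 0.51 to 2.01.

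The Musashi genes stayed at a high level throughout. Per kilobase of annotated exon, Msi1 and Msi2 held the first and second rank among the 10 genes at E14, P6 and P60. At E14 Msi2 was at 75.5 and Msi1 at 63.2 CPM per kilobase, and at P60 they were at 72.4 and 62.6 CPM per kilobase.

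Msi1 (chr5:115429599-115455698, plus strand) showed no change that passed the test. It was at 368, 362 and 371 CPM at E14, at 348, 353 and 349 CPM at E17, at 382, 455, 394 and 341 CPM at P1, and at 359, 361 and 346 CPM at P6. It was at 299, 319, 311 and 405 CPM at P15, at 334, 312, 277 and 283 CPM at P28, and at P60 the lowest, median and highest were 248, 389 and 427 CPM. Embryonic and mature libraries overlapped, and the difference was -0.12 (SE 0.08, 95% interval -0.29 to 0.04, adjusted p = 0.17). An F test over all ages gave an adjusted p of 0.11.

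That result for Msi1 depended on the P60 libraries. P60 replicates 1 and 2 were at 248 and 302 CPM, below the 382 to 427 CPM of P60 replicates 3 to 6. With the latter left out, Msi1 was lower in mature retina by 0.25 on the log2 scale (log2 difference -0.25, adjusted p = 0.00016). P15 replicate 4, the highest P15 library at 405 CPM, mattered as well. Leaving it out together with P60 replicates 3 to 6 gave -0.20 for P15 against P6 (adjusted p = 0.0255).

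Msi2 (chr11:88339382-88718513, minus strand) followed another course, with lower values from E17 to P6 and higher values at P15 and P28. It was at 752, 802 and 803 CPM at E14, at 629, 594 and 638 CPM at E17, at 625.4, 591, 656 and 677 CPM at P1, and at 618, 605 and 630.0 CPM at P6. It was at 909, 919, 951 and 808 CPM at P15, at 1000.1, 984, 979 and 844 CPM at P28, and at P60 the lowest, median and highest were 566, 676 and 998 CPM. Msi2 rose by 0.53 from P6 to P15 (SE 0.13, adjusted p = 0.0012), and the libraries of the 2 ages did not overlap. The difference from E14 to E17 was -0.34, without overlap of the libraries, and did not pass the test on all libraries (adjusted p = 0.12). It passed without P60 replicates 3 to 6 (-0.34, adjusted p = 8.1e-05) and with median-of-ratios scaling (-0.39, adjusted p = 0.024). With edgeR on recovered reads it passed as well (-0.37, adjusted p = 0.0455).

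Over the whole series, Msi2 was higher in mature than in embryonic retina by 0.29 (SE 0.08, adjusted p = 0.0018), although the libraries of the groups overlapped. Between P28 and P60 Msi2 fell by 0.37 on the log2 scale (SE 0.11, adjusted p = 0.024). Without P60 replicates 3 to 6 that difference turned to 0.06 (adjusted p = 0.78), since P60 replicates 1 and 2 were at 998 and 989 CPM and the other P60 libraries at 566 to 722 CPM. The Msi2 to Msi1 ratio had a geometric mean of 2.14 at E14, 1.63 at P1, 3.16 at P28 and 2.06 at P60, and at P60 it ranged from 1.43 to 4.02.

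Srrm4 (chr5:116439275-116591817, minus strand), the microexon regulator, peaked at P6. Its libraries were at 139.7, 154 and 134 CPM at E14, at 161, 149.7 and 159.8 CPM at E17, at 193, 219, 204 and 184 CPM at P1, and at 286, 298 and 285 CPM at P6. At P15 they were at 146, 148, 146 and 151 CPM, at P28 at 100.7, 109.8, 107 and 104 CPM, and at P60 the lowest, median and highest were 97.3, 131 and 134 CPM. All P6 libraries were above every library of the other 6 ages.

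The rise of Srrm4 was 0.35 from E17 to P1 (SE 0.09, adjusted p = 0.010) and 0.54 from P1 to P6 (SE 0.09, adjusted p = 1.2e-05). The first of these was lost without E17 replicate 2, the library with the high Rn18s, and with median-of-ratios scaling (adjusted p up to 0.069). The later steps were -0.96 at P15 against P6 (SE 0.09, adjusted p = 4.3e-10) and -0.48 from P15 to P28 (SE 0.08, adjusted p = 0.00052). Mature and embryonic levels differed by -0.27 (SE 0.06, adjusted p = 9.6e-05), with overlapping libraries. The antisense gene Srrm4os overlaps exons of Srrm4, and its log2(CPM + 1) had a correlation of 0.93 with that of Srrm4 over the 27 libraries. Without knowledge of the strand, reads of the pair cannot be told apart.

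Among the Fox-1 genes the members moved in opposite directions. Rbfox1 (chr16:5885355-7411526, plus strand) was at 79.7, 76.8 and 92.6 CPM at E14, at 151, 131 and 154 CPM at E17, at 159.0, 137, 169 and 175 CPM at P1, and at 206, 184 and 203 CPM at P6. It was at 253, 229.7, 239 and 209 CPM at P15, at 185, 191, 191 and 175 CPM at P28, and at P60 the lowest, median and highest were 118, 167 and 186 CPM. Every later library was above the highest of E14.

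Rbfox1 rose by 0.80 from E14 to E17 (SE 0.12, adjusted p = 5.6e-06) and by 0.31 from P1 to P6 (SE 0.11, adjusted p = 0.026). The second was lost without P1 replicate 2, P6 replicate 1 or P6 replicate 3 (adjusted p up to 0.11). In mature retina it was higher than in embryonic retina by 0.79 (SE 0.07, adjusted p = 1.0e-11), the largest rise among the 10 genes. Embryonic and mature libraries overlapped only through P60 replicate 3 at 118 CPM, since the next lowest mature library, at 157 CPM, was above the highest E17 library at 154 CPM. Amacrine cell markers summed to 90.2 to 109 CPM at E14 and 470 to 535 CPM at E17, and their part in the rise of Rbfox1 was not tested.

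Rbfox2 (chr15:77078990-77307004, minus strand) was at 265, 268 and 285 CPM at E14, at 315, 307 and 328 CPM at E17, and at 288, 272, 308 and 320.2 CPM at P1. It was at 150.5, 172 and 156 CPM at P6, at 123, 117, 119 and 131 CPM at P15, at 113, 117, 127 and 110.5 CPM at P28, and at P60 the lowest, median and highest were 98.5, 109.9 and 123 CPM. The mature libraries lay below all embryonic ones, with a difference of -1.33 (SE 0.05, adjusted p = 4.9e-21). Most of this lay between P1 and P6, where the difference was -0.89 (SE 0.08, adjusted p = 6.7e-11), and the step from P6 to P15 was -0.38 (SE 0.08, adjusted p = 0.00036).

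The Rbfox1 to Rbfox2 CPM ratio thus rose from a geometric mean of 0.304 at E14 to 0.537 at P1, 1.24 at P6 and 1.90 at P15. The libraries at P6 and later were all above 1 and those up to P1 all below 1, but CPM ratios between genes of different length do not give relative RNA numbers. At P60 the mean ratio was 1.45.

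Rbfox3 (chr11:118489762-118911597, minus strand), which encodes the neuronal marker NeuN, was the least abundant of the 10 genes per kilobase of exon at E14, P6 and P60. It was at 17.8, 18.2 and 17.5 CPM at E14, at 22.9, 25.9 and 31.2 CPM at E17, and at 12.5 to 18.2 CPM at P1. It was lowest at P6, at 11.9, 12.98 and 11.03 CPM, and lay at 17.4 to 22.4 CPM at P15, 14.2 to 17.5 CPM at P28 and 12.3 to 22.5 CPM at P60. Its course went up, down and up again.

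Rbfox3 rose by 0.54 from E14 to E17 (SE 0.17, adjusted p = 0.031), changed by -0.80 from E17 to P1 (SE 0.16, adjusted p = 0.00055) and rose by 0.62 from P6 to P15 (SE 0.16, adjusted p = 0.0024). The first of these was lost without any of the 3 E14 libraries, without E17 replicate 2 or 3, and with median-of-ratios scaling (adjusted p up to 0.20). Mature against embryonic retina gave -0.39 (SE 0.10, adjusted p = 0.00086). Libraries held 80 to 301 reads of this gene, the fewest among the 10.

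The Nova genes, which encode regulators of synaptic exons, both fell but began at different ages. Nova2 (chr7:18925888-18965319, plus strand) was at 129, 135 and 131 CPM at E14, at 92.7, 93.7 and 105 CPM at E17, at 79.2, 75.5, 78.5 and 85.4 CPM at P1, and at 66.8, 68.2 and 60.7 CPM at P6. It was at 47.1, 48.7, 57.9 and 57.5 CPM at P15, at 47.4, 42.1, 46.1 and 43.9 CPM at P28, and at P60 the lowest, median and highest were 43.4, 54.7 and 66.6 CPM. Each age from E17 to P15 lay wholly below the age before it.

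Nova2 differed by -0.44 from E14 to E17 (SE 0.12, adjusted p = 0.010), by -0.28 from P1 to P6 (adjusted p = 0.037) and, at P15 against P6, by -0.30 (adjusted p = 0.030). The first step was lost without E17 replicate 1 (adjusted p = 0.054). The other two were lost with median-of-ratios scaling and edgeR, the former also without P1 replicate 1, 3 or 4 or P6 replicate 1 or 3, and the latter also without P6 replicate 1 or 2 or P15 replicate 1 or 2 (adjusted p up to 0.16 for each). Mature against embryonic retina gave -1.14 (SE 0.07, adjusted p = 9.4e-16) with no overlap. The rise of 0.29 from P28 to P60 (adjusted p = 0.036) was 0.05 (adjusted p = 0.88) without P60 replicates 3 to 6.

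Nova1 (chr12:46694517-46818929, minus strand) was at 83.8 to 106 CPM at E14 and E17 and at 96.8, 97.6, 93.4 and 105 CPM at P1. It was at 71.1, 75.1 and 74.2 CPM at P6, at 51.8, 56.8, 54.6 and 47.3 CPM at P15, at 52.2, 53.1, 47.4 and 48.3 CPM at P28, and at P60 the lowest, median and highest were 38.3, 42.6 and 44.1 CPM. Its steps were -0.41 from P1 to P6 (SE 0.08, adjusted p = 0.00014), -0.48 from P6 to P15 (SE 0.08, adjusted p = 3.0e-05) and -0.27 from P28 to P60 (SE 0.07, adjusted p = 0.016). The last was -0.19 (adjusted p = 0.36) without P60 replicates 3 to 6. P60 replicates 1 and 2, at 43.4 and 44.1 CPM, also lay below every P28 library, as did the other P60 libraries.

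Mature against embryonic retina gave -0.91 for Nova1 (SE 0.05, adjusted p = 3.0e-16), and the libraries did not overlap. The Nova2 to Nova1 CPM ratio had a geometric mean of 1.54 at E14, 1.01 at E17, 0.811 at P1 and 1.33 at P60. Its largest move was thus between E14 and P1, a span in which Nova2 fell from E14 to E17 and no step of Nova1 passed the test.

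**Figure D4:**
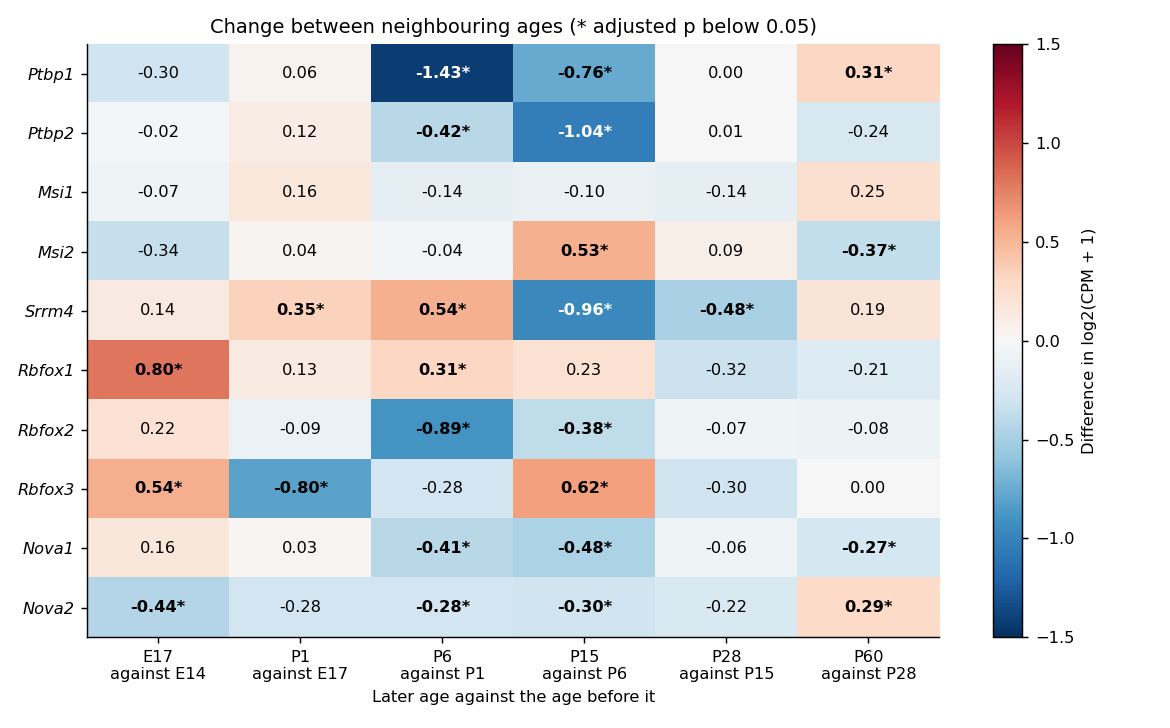
Difference in log2(CPM + 1) between each age and the age before it (columns) for the 10 genes (rows), with the colour scale from -1.5 to 1.5. Asterisks and bold type mark an adjusted p below 0.05 with all 27 libraries. Ptbp1, Ptbp2, Rbfox2, Nova1 and Nova2 were each lower in both steps from P1 to P15, and Srrm4 was higher at P6 and lower at P15.

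Counted by step, the regulators moved most between P1 and P15. From P1 to P6, 7 of 10 passed the test (38.3% of all features), 2 higher (18.0%) and 5 lower (20.4%). From P6 to P15, 8 of 10 passed (33.4% of all features), 2 higher (14.4%) and 6 lower (19.0%). Ptbp1, Ptbp2, Rbfox2, Nova1 and Nova2 were lower in both steps.

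Fewer passed in the steps up to P1 and in those after P15. From E14 to E17 the count was 3 of 10 (10.6% of all features), with Rbfox1 and Rbfox3 higher (7.56%) and Nova2 lower (3.02%). From E17 to P1 it was 2 of 10 (9.21%), with Srrm4 higher (5.77%) and Rbfox3 lower (3.43%). From P15 to P28 it was 1 of 10 (2.72%), with 0 higher (1.14%) and Srrm4 lower (1.58%).

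From P28 to P60 the limma count was 4 of 10 (12.9% of all features), with Ptbp1 and Nova2 higher (4.80%) and Msi2 and Nova1 lower (8.11%). None of these 4 was called when P60 replicates 3 to 6 were left out, nor when the fit held only the compared ages. The first of these fits kept only P60 replicates 1 and 2, the P60 libraries most like P28, so it cannot decide whether levels changed. Single libraries also decided these calls: Ptbp1 was lost without P28 replicate 1 or 3 or any of P60 replicates 3 to 6, Nova1 without P28 replicate 1 or 2, Msi2 without P28 replicate 1, 2 or 3 or P60 replicate 3, 4 or 5, and Nova2 without any P28 library or P60 replicate 3, 5 or 6. The edgeR quasi-likelihood test on reads recovered from the CPM also called 4, with Srrm4 in place of Nova1.

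Other splicing genes were read from lists of cofactors, families and target genes. Their counts are read beside the 40.4% of all features that were lower in mature retina and the 35.0% that were higher. All 17 hnRNP genes (abundant RNA binding proteins, several of which repress exons) were tested, and 16 fell from embryonic to mature retina, 0 rose and 1, Hnrnpl, did not pass (0.11, adjusted p = 0.13). Their median difference was -0.96, with Hnrnpa1 at -2.37 and Hnrnpa0 at -2.15. Of 13 SR and TRA2 genes, whose products mostly promote exon inclusion, 10 fell and 3 rose, with a median of -0.82. Srsf7 was at -1.33 and Srsf3 at -1.30, whereas Srsf12 rose by 0.53 and Srsf5 by 0.52.

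Of the 4 cofactors and relatives of PTB proteins, 3 fell (40.4% of all features) and 1 rose (35.0%). Ptbp3, the third PTB gene, was at -2.15 (SE 0.11, adjusted p = 1.7e-17), close to Ptbp1 at -2.18, and Raver1, a PTB cofactor, was at -1.25. Raver2 rose by 0.25. Rest, the repressor of neuronal genes that also represses Srrm4 in other cells, was at -1.498 and its corepressor Rcor1 at -0.88.

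Among 21 other regulators of neuronal or tissue-specific splicing, 13 fell, 7 rose and 1, Celf3, did not pass (0.08, adjusted p = 0.45). The muscleblind genes, which regulate exons in maturing tissues, were the extremes in both directions. Mbnl1 rose by 2.31 (SE 0.09, adjusted p = 1.4e-20), with means of 76.8 CPM at E14, 107 CPM at P1 and 382 CPM at P6, and Mbnl2 rose by 1.22. Mbnl3 was at -4.42 and Elavl4, a neuronal RNA binding gene, at -3.28. These shares are read beside the 35.0% of all features that were higher and the 40.4% that were lower. Without P60 replicates 3 to 6 the counts of the lists were as before, except that Raver2 and Tra2a were no longer called.

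**Figure D5:**
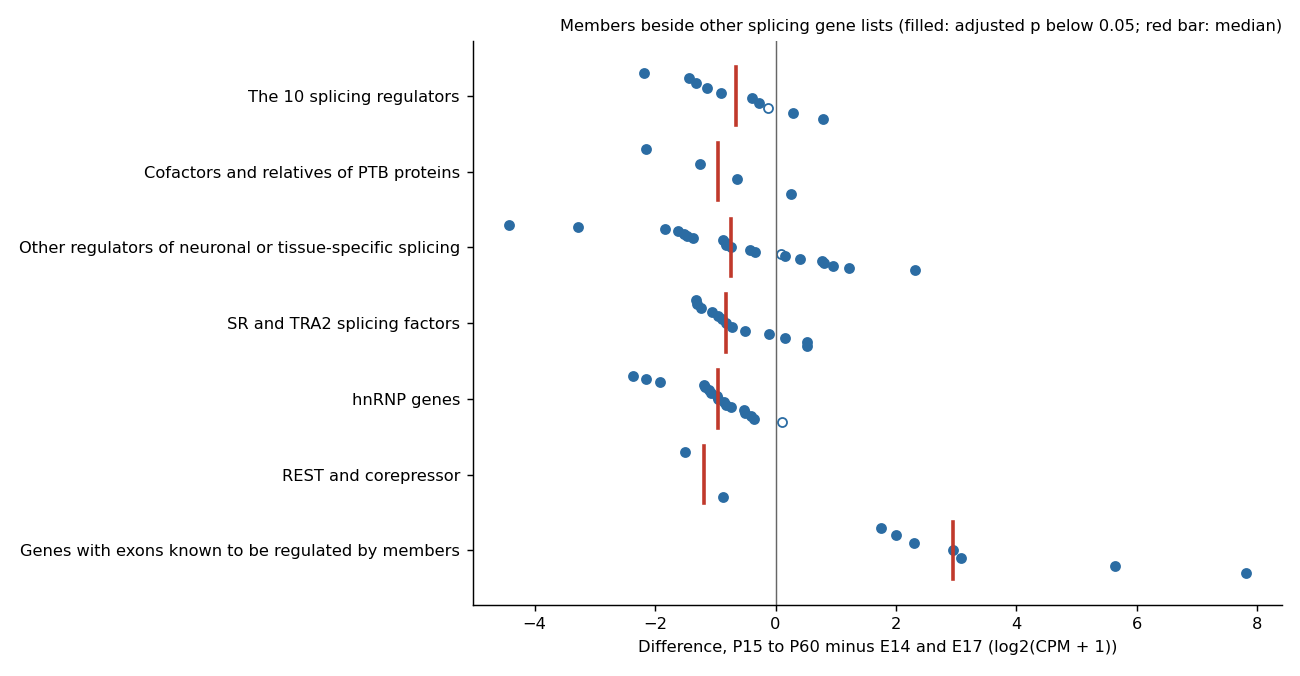
Difference between mature and embryonic retina in log2(CPM + 1) (horizontal axis) for the 10 splicing regulators and 6 further gene lists (rows). Each circle is a gene, filled where the adjusted p was below 0.05, and red bars are medians. The median was -0.65 for the regulators, -0.96 for hnRNP genes and 2.94 for the genes with regulated exons.

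The last list held 7 genes with exons known to be regulated by PTB or Musashi proteins. All 7 rose in mature retina, with a median of 2.94, where 35.0% of all features were higher and 14.9% at 2-fold or more. The largest were Slc17a7, the vesicular glutamate transporter VGLUT1, at 7.81 (SE 0.09) and Cacna2d4, a photoreceptor calcium channel subunit, at 5.64 (SE 0.08). The smallest were Cep290 at 1.76 (SE 0.05) and Cc2d2a at 1.997 (SE 0.06), which encode proteins of the cilium base. These are levels of whole genes, so they give no measure of exon use. The list was chosen with earlier results of these data known, so its count is a description and no test of regulation by the members. The part of changing cell makeup in these rises was not tested.

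Cell type markers moved with these ages. Rod markers summed to 16.5 to 23.2 CPM at E14, 2137 to 2795 CPM at P6 and 23913 to 29373 CPM at P60, ganglion cell markers to 762 to 772 CPM at E14 and 164 to 204 CPM at P60, and bipolar cell markers to 21.8 to 25.0 CPM at E14 and 1515 to 1561 CPM at P15. Markers of 3 tissues outside the neural retina were low, with retinal pigment epithelium at most at 49.4 CPM, lens at 9.93 CPM and blood at 50.3 CPM in any library. Vessel markers were an exception, at 417 to 489 CPM at P1 and 124 to 143 CPM at P60. Kdr made up most of this, with a mean of 457 CPM at P1, against 0.66 for Cdh5, 1.55 for Pecam1 and 4.30 for Cldn5. From embryonic to mature retina Cdh5 and Pecam1 rose (1.52 and 2.35), while Kdr and Cldn5 fell (-0.86 and -0.45). The part of changing cell makeup in the courses of the 10 regulators was not tested.

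Features alike to each regulator were sought among 9775 genes by Pearson correlation of log2(CPM + 1) over the 27 libraries. These libraries share ages, so the values describe a common course over age together with differences between libraries of an age. For Ptbp1 these were Spata13, Rcc2 and Anln, a cytokinesis gene (r = 0.99 each), and for Rbfox2 they were Nhs, Cux1 and Zfp608 (0.99 each). For Ptbp2 they were Phip and Zbtb10 (0.99 each), and for Nova1 Ccdc88a, Sorbs2 and Marcks (0.98 to 0.99). Nova2 was alike to Eef1g, Hsp90ab1 and Ikbkap (0.97 each).

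The remaining members had less close matches. Srrm4 was alike to Trib1, Srrm4os and Zfp536 (0.93 to 0.94), Rbfox1 to Trim9 and Pcdh7 (0.94 to 0.95), and Msi2 to Fsd1l, Fam63b and Zfp442 (0.86 to 0.92). Values for Msi1 (Grik5 and Nabp2, 0.81 each) and Rbfox3 (Slc16a3, Dnajc21 and Clmn, 0.74 to 0.78) were lower still. Among pairs of members, the highest correlations were 0.98 for Ptbp2 with Nova1 and 0.96 for Ptbp1 with Rbfox2, and the lowest were -0.78 for Rbfox1 with Nova2 and -0.74 for Msi1 with Msi2.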

How the data were processed

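Whole-retina total RNA was sequenced in 27 libraries. The authors prepared them with the SMARTer kit, aligned single-end reads with STAR to mm10 (GRCm38) and deposited 1 table of CPM. The annotation and use of strand are not given in the sources used here. The labels give 3 retinas per library, whereas the methods give larger pools and, at P60, also individual mice. P-values then measure the spread between libraries.

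CPM values were whole multiples of 1 read in each library (100% of low values, tolerance 0.1), which gave the read totals. The 31760 features that reached 1 CPM in 3 or more libraries were fitted on log2(CPM + 1) with limma 3.58.1 (trend, R 4.3.3) over all ages, with Benjamini-Hochberg adjustment. This scale understates changes of low genes. edgeR 4.0.16 on the recovered reads (TMM), other filters, pseudocounts, scalings and left-out libraries were alternatives, and scripts were tested on simulated data. Intervals cover these libraries only. No depositor column was left unused. The members and gene lists were chosen with earlier results of these data known. All members are named, and in each list the 2 largest rises and falls, beside genes that did not pass and, in the list where no gene fell, the 2 smallest rises. Exon sequence was read from GENCODE vM21. For each member the 3 features with the highest correlation were taken, and some of them are not reported here.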

Additional observations from a re-analysis of the deposited data

Results flagged for a closer look

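In 40 groups of 4 or 6 libraries (a gene at P1, P15, P28 or P60), 2 had a library far from the others by Dixon's criterion, which chance meets in about 1 in 20 groups. These groups share libraries, so they are not independent. Ptbp2 was at 112 CPM in P15 replicate 4 (111.61), against 162 to 164 CPM in the other P15 libraries, a gap of 0.963 of the range. P15 replicate 4 was also the lowest P15 library for Msi2, Rbfox1 and Nova1. It was the highest for Ptbp1, Msi1, Srrm4, Rbfox2 and Rbfox3, and neither for Nova2. Msi2 was at 844 CPM in P28 replicate 4 (844.47), against 979 to 1000.1 CPM in the other P28 libraries, a gap of 0.868 of the range.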

How the results depend on the processing

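Of 34 member comparisons called, 24 kept their call and direction under every alternative run. For mature against embryonic retina 9 members were called, and 4 with a 2-fold change, with each library left out in turn and under the other filters, pseudocount, scaling, block, edgeR and choices of ages. Leaving out P60 replicates 3 to 6 gave 10, with Msi1 added, and the cause of the changes below was not tested. The counts that moved were those of single steps. From E14 to E17, 3 calls became 6 with only the compared ages, and 6 without P60 replicates 3 to 6, with or without P15 replicate 4. The genes added were Ptbp1, Msi2 and Rbfox2. Without P60 replicates 3 to 6 their differences were unchanged, at -0.30, -0.34 and 0.22, and only the adjusted p moved. All ages in a fit share the same estimate of the spread, so P60 libraries also enter the tests of other steps. With any E14 or E17 library left out the count was 2. From E17 to P1, 2 became 1 with median-of-ratios scaling and ranged from 1 to 2 with each library left out (1 without E17 replicate 2). From P1 to P6, 7 became 6 with median-of-ratios scaling and with edgeR, and ranged from 5 to 7 with each library left out. From P6 to P15, 8 became 9 with the compared ages only and without P60 replicates 3 to 6. It became 10 with P15 replicate 4 also left out, and ranged from 7 to 8 with each library left out. From P15 to P28, 1 became 2 with the compared ages only and in both fits without P60 replicates 3 to 6. From P28 to P60, 4 became 0 with the compared ages only and in both fits without P60 replicates 3 to 6, and ranged from 0 (without P28 replicate 1) to 7 (without P60 replicate 1 or 2) with each library left out.

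Shared replicate numbers did not pair the libraries (mean correlation of deviations -0.0014 over 69 same-numbered pairs). A replicate block left 9 and 4 members called for mature against embryonic retina and 3, 2, 7, 8, 1 and 0 in the 6 steps in order of age. With the block, Ptbp1 from E17 to P1 turned to -0.00 (-0.0010) and Rbfox3 from P28 to P60 to -0.10.

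The other reversals were small values. From P28 to P60 without P60 replicates 3 to 6, Ptbp2 was 0.06 (0.059), Msi1 -0.13, Msi2 0.06 (0.065) and Srrm4 -0.06 (-0.063), the same with P15 replicate 4 also left out. Only Msi2 among these was called with all libraries. From P15 to P28, Ptbp1 was 0.01 (0.011) with median-of-ratios scaling, 0.02 (0.015) with edgeR on all libraries and on all but E14 replicate 1, and 0.07 (0.072) without P15 replicate 4 and P60 replicates 3 to 6. Ptbp2 was -0.13 in the last of these. With edgeR, Msi2 from P1 to P6 was 0.0011 and Nova1 from E17 to P1 -0.0018, in both fits. With each library left out, values ranged from -0.06 (-0.064) to 0.07 (0.072) for Ptbp1 and -0.13 to 0.06 (0.057) for Ptbp2 from P15 to P28, -0.05 (-0.046) to 0.01 (0.0096) for Ptbp2 from E14 to E17, -0.10 to 0.07 (0.067) for Rbfox3 from P28 to P60, and -0.02 (-0.017) to 0.10 for Nova1 from E17 to P1. Depth limits Rbfox3 most, at 80 reads in its lowest library.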
